A study of Mus musculus with 16 samples.

Results

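Cadherins and adhesion molecules of the immunoglobulin superfamily were followed as 10 genes on an expression microarray of the newborn mouse inner ear. The genes were the type I cadherins Cdh1, Cdh2 and Cdh3, the type II cadherins Cdh5 and Cdh11, and the immunoglobulin family members Ncam1, L1cam, Cntn1, Alcam and Mcam. They were chosen by name, and every probe set whose platform annotation gave only that symbol was kept. All 10 genes were on the chip, out of 8251 genes with a probe set of their own, and were read by 13 of the 12422 probe sets tested. Ncam1 had 3 probe sets, Cdh3 had 2 and each of the other 8 genes had 1.

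The tissue was the whole inner ear at postnatal day 0 from 129SvEv mice, either COUP-TFI-/- or wild-type. COUP-TFI, encoded by Nr2f1, is an orphan nuclear receptor, and the null mice lack it in every tissue. The 8 Affymetrix MG-U74Av2 chips were hybridized in 2 sets at different times, called A and B, with 1 RNA pool of several animals per genotype and set and 2 chips per pool (COUP-TFI-/- A1, A2, B1 and B2; wild-type A1, A2, B1 and B2). The letter of the chip label was read as the set and the number as the duplicate chip. There were thus 2 pools per genotype, and the pool, not the chip, was the replicate. Because each set had its own pools, the hybridization and the animals of a set cannot be told apart.

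Cadherins are single-pass proteins whose outer repeats bind the same cadherin on the next cell in the presence of calcium, while their tails hold catenins that tie the junction to actin. Type I cadherins build strong epithelial and neural junctions. Of the type II cadherins followed here, Cdh5 is typical of endothelium and Cdh11 of mesenchyme. The immunoglobulin family members need no calcium, bind themselves or one another, and guide axons, bundle nerve fibers and line vessels. In the developing ear both families have been linked to the sorting of the sensory epithelium, the outgrowth of the cochlear nerve and the vessels of the lateral wall. In RNA of a whole organ, fewer cells of a type and less RNA per cell cannot be told apart.

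Each chip was deposited under 2 normalizations, GCRMA values on the log2 scale and dChip intensities on a linear scale, which were taken to log2 here before any difference. Chip medians lay between 7.2 and 7.23 for GCRMA and between 291 and 305 for dChip. The median SD between duplicate chips was 0.0647 log2 units for GCRMA and 0.0687 for dChip. Probe set 102715_at of Nr2f1 read 5.27, 5.08, 4.68 and 4.69 (GCRMA) on the COUP-TFI-/- chips, against 8.83, 8.72, 7.90 and 7.74 on the wild-type chips, so the genotypes matched their labels. Values of different probe sets were not set against each other, because probes differ in how well they bind.

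The comparison of the sets, made over the pool means with genotype in the same fit, separated 5 of the 10 genes with GCRMA. Cntn1, Alcam, Cdh2, Cdh11 and Cdh5 were higher in set A than in set B, and none was lower (limma, Benjamini-Hochberg adjusted p under 0.05, 5 of 13 probe sets). Over all probe sets 25.8% were called in this comparison, in nearly equal numbers up (1689) and down (1516). The median difference of the 13 probe sets was 0.20 log2 units, against -0.02 over all probe sets. With dChip, Alcam, Cdh2, Cntn1 and Cdh5 were called, all higher in set A (4 of 13 probe sets, against 11.7% of all probe sets). The 4 genes called with dChip were among the 5 called with GCRMA.

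**Figure D1:**
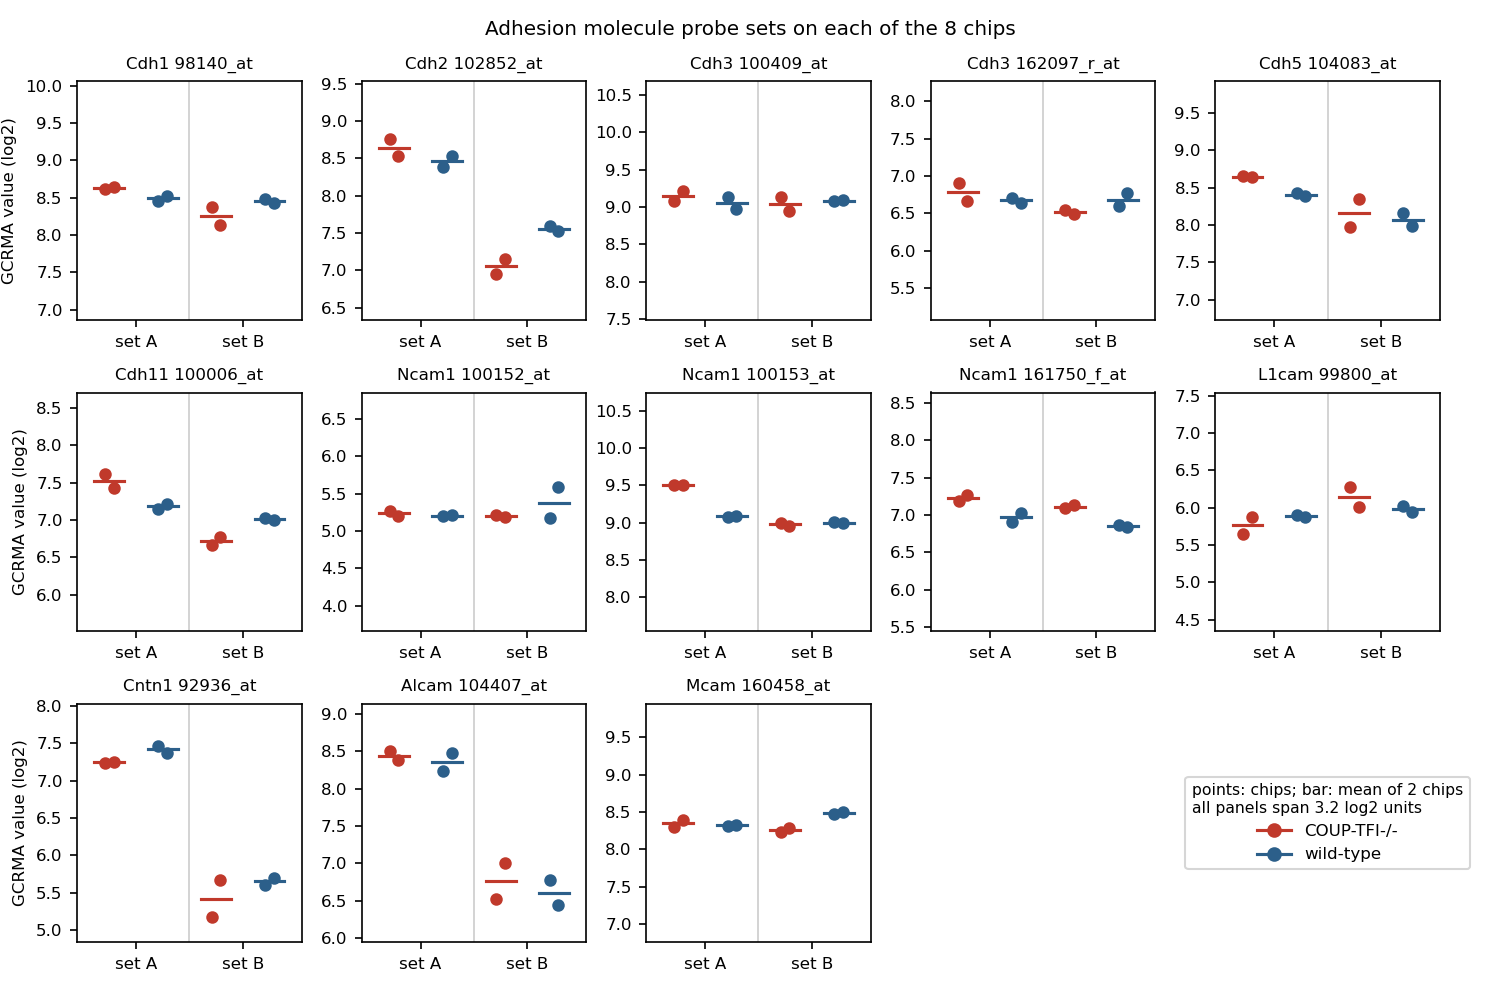
GCRMA values (log2, y axis) of the 13 probe sets on each chip; points are chips, bars are means of 2 duplicate chips, with COUP-TFI-/- left of wild-type within set A and within set B, and every panel spans the same height. Cntn1, Alcam and Cdh2 sit higher in set A in both genotypes, by 1.80, 1.71 and 1.25 log2 units, and Cdh11 is spread by genotype in opposite ways in the 2 sets.

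Contactin 1 (Cntn1), a glycosylphosphatidylinositol-anchored axonal protein that organizes contacts between axons and glia, had the widest separation among the members with GCRMA. Probe set 92936_at read 7.24 and 7.25 on the COUP-TFI-/- chips and 7.47 and 7.37 on the wild-type chips of set A, against 5.17 and 5.67 (COUP-TFI-/-) and 5.61 and 5.70 (wild-type) in set B. All 4 chips of set A were above all 4 of set B. The GCRMA difference of 1.80 ± 0.10 log2 units (SE), a 3.47-fold ratio, ranked 15 in size among all probe sets (adjusted p = 6.4e-09). In dChip intensities the same probe set read 674, 612, 656 and 660 in set A, with the COUP-TFI-/- chips given before the wild-type chips, and 346, 407, 288 and 306 in set B. The dChip ratio was smaller, 1.95-fold (difference 0.96 ± 0.13, adjusted p = 0.016), with no overlap of the sets. With GCRMA the set B readings were dim, where the median of all values was 7.22, so the size of the GCRMA ratio depends on low values. With dChip the set B readings lay around the median of all intensities, 299.

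Alcam, an immunoglobulin family protein of growing axons, epithelium and mesenchyme that binds itself and, on lymphocytes, CD6, was also separated. On 104407_at set A read 8.50 and 8.38 (COUP-TFI-/-) and 8.23 and 8.47 (wild-type), against 6.52 and 7.00 (COUP-TFI-/-) and 6.77 and 6.44 (wild-type) in set B. The chips of the sets did not overlap with either normalization. The difference was 1.71 ± 0.10 with GCRMA (3.27-fold, adjusted p = 1.0e-08) and 1.48 ± 0.11 with dChip (2.78-fold, adjusted p = 0.0042). Within COUP-TFI-/- pools alone it was 1.68 with GCRMA, and within wild-type pools 1.75.

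Promoter sequence was at hand for 4 of the 10 genes, from the RefSeq annotation of GRCm38.p6, which gave 7 windows of 300 bases (250 bases before to 50 after an annotated start). The window of Alcam, the most upstream window of Cntn1 and, for contrast, the window of Mcam are printed because the first pair belong to the genes farthest apart between the sets, whereas Mcam, the closest relative of Alcam among the members, was not called. Capitals mark matches to AGGTCA (the half-site of nuclear receptors such as COUP-TFI), CAGGTG (the E-box through which repressors of Cdh1 act), GGGCGG (the GC box) and CCAAT, searched on both strands, in which none of the marked matches overlap.
Alcam, chr16:52453032-52453331, minus strand: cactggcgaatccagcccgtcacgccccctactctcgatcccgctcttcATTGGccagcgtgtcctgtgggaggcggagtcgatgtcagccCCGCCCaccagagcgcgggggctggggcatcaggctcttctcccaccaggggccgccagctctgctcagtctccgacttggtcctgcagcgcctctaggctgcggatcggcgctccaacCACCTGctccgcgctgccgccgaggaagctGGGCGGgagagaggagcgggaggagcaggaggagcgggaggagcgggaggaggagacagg
Cntn1, chr15:92050915-92051214, plus strand: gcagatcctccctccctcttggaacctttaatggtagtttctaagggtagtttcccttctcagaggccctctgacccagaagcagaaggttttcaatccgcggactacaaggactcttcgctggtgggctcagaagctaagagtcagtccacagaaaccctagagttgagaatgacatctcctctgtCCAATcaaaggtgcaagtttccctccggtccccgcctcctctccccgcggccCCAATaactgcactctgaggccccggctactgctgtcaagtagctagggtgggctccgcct
Mcam, chr9:44134408-44134707, plus strand: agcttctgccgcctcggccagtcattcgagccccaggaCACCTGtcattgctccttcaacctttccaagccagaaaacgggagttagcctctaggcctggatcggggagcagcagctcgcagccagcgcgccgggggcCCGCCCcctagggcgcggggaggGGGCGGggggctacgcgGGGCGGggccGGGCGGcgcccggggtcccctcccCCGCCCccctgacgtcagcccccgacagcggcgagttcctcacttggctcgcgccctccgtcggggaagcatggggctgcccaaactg
The Alcam window held 2 GC boxes, 1 CCAAT and 1 CAGGTG, the Mcam window held 5 GC boxes and 1 CAGGTG, and the printed Cntn1 window held 2 CCAAT and none of the other motifs. AGGTCA was in 0 of the 7 windows of the members and in 16.3% of all 32851 windows. The 7 windows came from 4 genes, and those of L1cam overlap, so they are too few to show a lack of the half-site. Ncam1 and the cadherins had no window. The shares of all windows with the other motifs were 20.2% for CAGGTG, 35.7% for GGGCGG and 37.4% for CCAAT. The G and C content was 69.7% in the Alcam window, 55.3% in that of Cntn1 and 72.7% in that of Mcam. A match of letters is a description of the window and not a bound site.

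Among the type I cadherins only Cdh2 was called between the sets. Cdh2 (N-cadherin), the cadherin of neural tissue, muscle and much mesenchyme, read 8.76 and 8.53 on the COUP-TFI-/- chips and 8.39 and 8.54 on the wild-type chips of set A. The set B readings were 6.95 and 7.16 (COUP-TFI-/-) and 7.59 and 7.53 (wild-type). The sets did not overlap, and the difference was 1.25 ± 0.13 with GCRMA (2.37-fold, adjusted p = 7.0e-06) and 1.21 ± 0.16 with dChip (2.32-fold, adjusted p = 0.016). It was 1.59 within COUP-TFI-/- pools and 0.90 within wild-type pools (GCRMA).

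Cdh1 (E-cadherin) and Cdh3 (P-cadherin), the cadherins of epithelium, lie side by side in the mouse genome with 0 protein-coding genes between them. Cdh1 read 8.61 and 8.64 (COUP-TFI-/-) and 8.46 and 8.52 (wild-type) in set A, against 8.38 and 8.13 (COUP-TFI-/-) and 8.48 and 8.43 (wild-type) in set B. The ranges of the sets overlapped, and the difference of 0.20 ± 0.10 was not called (GCRMA, adjusted p = 0.17). Cdh3 spanned 8.95 to 9.22 on 100409_at and 6.49 to 6.91 on 162097_r_at over the 8 chips, with differences of 0.04 ± 0.10 and 0.14 ± 0.10 that were not called. The dChip difference was 0.31 ± 0.10 for Cdh1, and for Cdh3 it was 0.00 ± 0.11 and 0.07 ± 0.12, again without a call.

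The type II cadherins, which are also neighbors in the genome with 0 protein-coding genes between them, were both called with GCRMA. Cdh5 (VE-cadherin), which forms the junctions of endothelium, read 8.65 and 8.64 (COUP-TFI-/-) and 8.42 and 8.39 (wild-type) in set A, and 7.97 and 8.35 (COUP-TFI-/-) and 8.16 and 7.98 (wild-type) in set B. Set A was above set B on every chip, by 0.41 ± 0.10 with GCRMA (1.33-fold, adjusted p = 0.0059) and by 0.71 ± 0.10 with dChip (1.64-fold, adjusted p = 0.018). Cdh11 (osteoblast cadherin), a cadherin of mesenchyme, bone and connective tissue, read 7.61 and 7.43 (COUP-TFI-/-) and 7.15 and 7.22 (wild-type) in set A, and 6.66 and 6.77 (COUP-TFI-/-) and 7.02 and 7.00 (wild-type) in set B. The sets did not overlap, yet the difference of 0.49 ± 0.12 (1.41-fold, adjusted p = 0.0092) was made up of 0.81 in COUP-TFI-/- pools and 0.17 in wild-type pools. With dChip Cdh11 differed by a like amount, 0.48 ± 0.17, that was not called (adjusted p = 0.12).
The GCRMA calls of Cdh5 and Cdh11 depended on the fit. With 1 residual degree of freedom the prior of the moderated variance is itself loosely estimated, and with that prior set to 4 degrees of freedom in place of 14.3 the adjusted p was 0.066 for Cdh5 and 0.13 for Cdh11, while Cntn1, Alcam and Cdh2 stayed called. Cdh5 had an adjusted p of 0.055 in the 2-way analysis of variance named in the methods. The Cdh11 call was also lost without chip COUP-TFI-/- A1 (adjusted p = 0.054) or wild-type A2 (adjusted p = 0.052).

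The neural cell adhesion molecule Ncam1, which carries polysialic acid on growing nerve fibers, gave different readings on its 3 probe sets. On 100153_at set A read 9.50 and 9.51 (COUP-TFI-/-) and 9.08 and 9.09 (wild-type), against 9.00 and 8.96 (COUP-TFI-/-) and 9.01 and 8.99 (wild-type) in set B. The high values were those of the COUP-TFI-/- pool of set A, and the sets did not overlap, but the difference of 0.31 ± 0.11 missed the threshold (GCRMA, adjusted p = 0.053). It passed with the 2-way analysis of variance named in the methods (adjusted p = 0.0033) and with the pool as a random block over the 8 chips (adjusted p = 0.011), but not with the prior set to 4 degrees of freedom (adjusted p = 0.20). Probe set 161750_f_at differed by 0.11 ± 0.10 with GCRMA and 0.51 ± 0.12 with dChip (adjusted p = 0.052), and 100152_at by -0.07 ± 0.10 and -0.20 ± 0.10. Probe set 100152_at was dim, 5.17 to 5.59 with GCRMA where the median of all values was 7.22. The dChip difference of 100153_at was 0.51 ± 0.14 (adjusted p = 0.073).

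L1cam, an axonal protein of the X chromosome, and Mcam (CD146), a protein of vessels and smooth muscle, were not called between the sets. L1cam was likewise dim, with 5.65 and 5.88 (COUP-TFI-/-) and 5.90 and 5.87 (wild-type) in set A, and 6.28 and 6.01 (COUP-TFI-/-) and 6.02 and 5.94 (wild-type) in set B. Its set A chips were all below its set B chips with GCRMA, by -0.23 ± 0.10 (adjusted p = 0.11), whereas the dChip difference had the other sign, 0.07 ± 0.11, with overlap. Mcam spanned 8.30 to 8.40 in set A and 8.23 to 8.50 in set B, a difference of -0.04 ± 0.10 with GCRMA and 0.17 ± 0.13 with dChip. L1cam and Mcam were thus the 2 probe sets whose set difference changed sign between the normalizations, and 11 of 13 kept it, a share not computed over all probe sets.

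Counted by overlap alone, 6 of the 13 probe sets had every set A chip above every set B chip and 1 had every set A chip below with GCRMA, where 37.1% of all probe sets were separated in either direction. With dChip 7 of 13 were separated, all with set A above, against 40.5% of all probe sets.

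**Figure D2:**
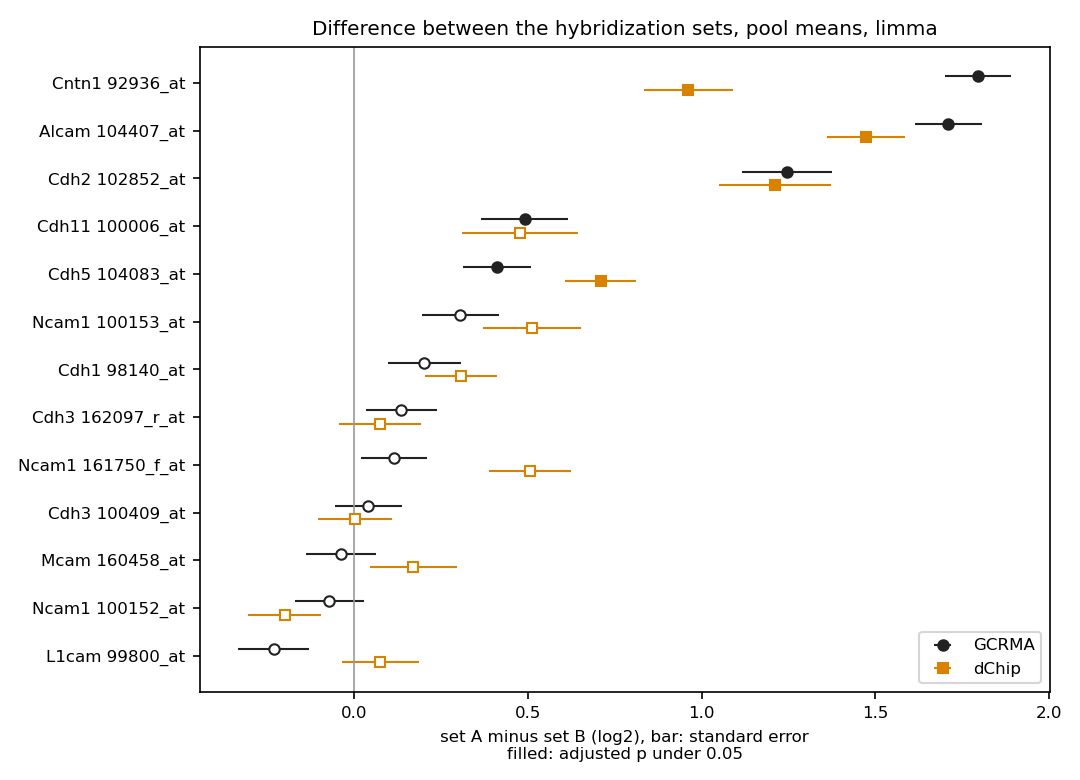
Set A minus set B (log2, x axis) for each of the 13 probe sets, from pool means in limma; circles are GCRMA, squares dChip, bars standard errors, and filled symbols have an adjusted p under 0.05. The filled symbols all lie to the right of 0, and Cntn1 shows the largest gap between the normalizations, 1.80 against 0.96.

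The comparison of the genotypes, for which the study was made, called 0 of the 13 probe sets with either normalization (limma over the pool means, with set in the fit). Over all probe sets 0.105% were called with GCRMA and 0.00805% with dChip. At an unadjusted p under 0.05 there were 2 of 13 with GCRMA and 0 with dChip, where 4.58% (GCRMA) and 2.13% (dChip) of all probe sets passed that level. The 2-way analysis of variance named in the methods, run on the same chips, had 3 (GCRMA) and 2 (dChip) of 13 at that level, where 10.8% and 12.5% of all probe sets passed it, and 0 of 13 after Benjamini-Hochberg adjustment. The differences ran between -0.21 and 0.26 log2 units with GCRMA, and the 95% intervals of all 13 stayed between -0.44 and 0.46, that is, between a 0.739-fold and a 1.38-fold ratio. With dChip the intervals stayed between -0.47 and 0.51. An exact permutation test over the 4 pools could not have gone below p = 0.33 (two-sided), so the comparison rests on the spread that limma shares across probe sets. The paper reports cell adhesion among the gene ontology categories enriched in its list of genotype candidates. That list used unadjusted p cutoffs over single chips and was drawn from the whole chip, so it is not like the calls here. The enrichment was not tested here.

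The member that came closest was Ncam1 on probe set 161750_f_at. The paper places this probe set at the top of its ranked candidate COUP-TFI targets. That ranking rests on the genotype p-value or fold change and on the number of conserved predicted binding sites. Its candidates had passed unadjusted p cutoffs over single chips under both normalizations, without an interaction. The calls here use pool means and an adjusted p, so the thresholds are not alike. The COUP-TFI-/- chips read 7.19 (A1), 7.26 (A2), 7.09 (B1) and 7.13 (B2), against 6.90 (A1), 7.03 (A2), 6.87 (B1) and 6.84 (B2) on the wild-type chips. Every COUP-TFI-/- chip was above every wild-type chip, as held for 1 of the 13 probe sets with GCRMA and for 2.26% of all probe sets. The difference was 0.26 ± 0.10 (1.20-fold, unadjusted p = 0.016, adjusted p = 0.83), and it was 0.26 in each set. With dChip it was 0.21 ± 0.12, made up of 0.07 (set A) and 0.36 (set B), and the genotypes overlapped, as they did for all 13 probe sets (1.89% of all probe sets were separated with dChip). The other probe sets of Ncam1 differed by 0.20 ± 0.11 (100153_at) and -0.08 ± 0.10 (100152_at) with GCRMA.

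Cntn1 was the other probe set under an unadjusted p of 0.05 with GCRMA, at -0.21 ± 0.10 (limma, unadjusted p = 0.045, adjusted p = 1.00). The GCRMA difference had a negative sign within either set, -0.18 (set A) and -0.23 (set B). The dChip difference had the opposite sign, 0.15 ± 0.13, made up of -0.04 (set A) and 0.34 (set B). The sign of the genotype difference thus depended on the normalization for Cntn1, and for 5 of the 13 probe sets in all. The matching share over all probe sets was not computed.

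Within the sets, the genotype difference of most members did not keep its sign. It had the same sign in both sets for 4 of 13 probe sets with GCRMA (Cdh5, Ncam1 161750_f_at, Cntn1 and Alcam) and for 4 of 13 with dChip (Cdh3 100409_at, Cdh5, Ncam1 100152_at and 161750_f_at). The share of all probe sets that kept their sign was not computed, so these counts are not read as particular to the members. Cdh5 was 0.24 higher in COUP-TFI-/- in set A and 0.08 higher in set B, and Alcam 0.09 and 0.16 higher (GCRMA). Each such value compares 1 pool with 1 pool, so no test over pools exists within a set.

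**Figure D3:**
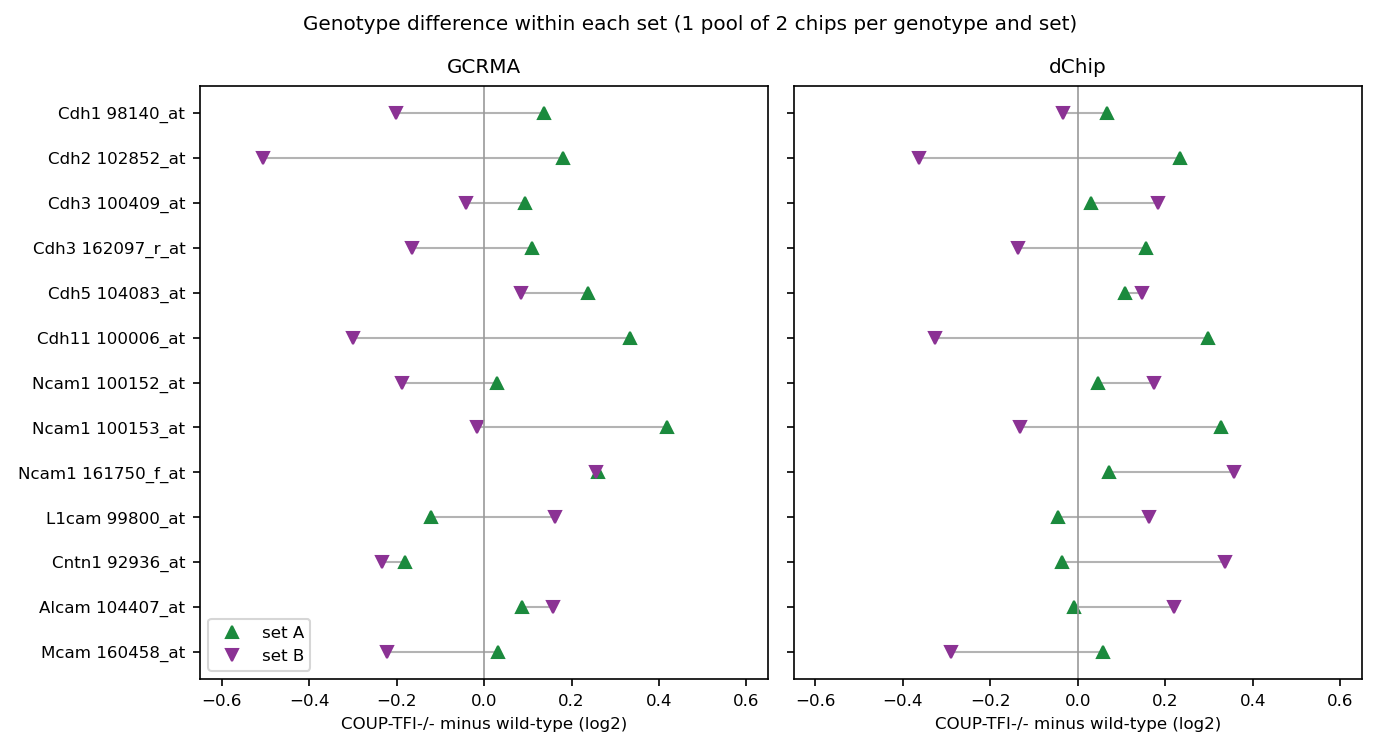
COUP-TFI-/- minus wild-type (log2, x axis) within set A (upward triangles) and set B (downward triangles) for each of the 13 probe sets, GCRMA on the left and dChip on the right, each from 1 pool of 2 chips per genotype. Lines that cross 0 join differences of opposite sign: Cdh11 lies at 0.33 in set A and -0.30 in set B with GCRMA.

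The unequal difference of the sets was tested as the interaction of genotype and set over the 8 chips, that is, against the spread of duplicate chips of the same pools and not against a spread of pools. Cdh11 was called, 1 of the 13 probe sets, where 0.958% of all probe sets were called. COUP-TFI-/- minus wild-type was 0.33 (set A) and -0.30 (set B), with no overlap of the genotypes within either set, and the difference of these was 0.63 ± 0.13 (adjusted p = 0.042). With dChip the same difference was 0.62 ± 0.11 (adjusted p = 0.055). Leaving out any 1 of 7 chips raised the adjusted p of Cdh11 above 0.05, to between 0.074 and 0.15, and only without chip COUP-TFI-/- B2 did the call stay (adjusted p = 0.026).
Cdh2 had a like pattern, 0.18 (set A) and -0.51 (set B), a difference of 0.69 ± 0.15 (GCRMA, adjusted p = 0.055). Ncam1 100153_at stood at 0.42 (set A) and -0.02 (set B), a difference of 0.44 ± 0.11 (adjusted p = 0.089). For Cntn1 and Alcam the differences between the sets were 0.05 ± 0.18 and -0.07 ± 0.21 with GCRMA. With dChip they were -0.37 ± 0.14 for Cntn1 (adjusted p = 0.18, unadjusted p = 0.026) and -0.23 ± 0.22 for Alcam.

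The catenins and other cytoplasmic partners of cadherins were represented by 18 of 22 listed genes, each read by its brightest probe set, and 8 of the 18 were higher in set A and 0 lower (GCRMA), against 26.4% of the 8251 genes called in either direction. Their median difference was 0.18, against -0.02 over all genes. The most separated were Lmo7, an actin-bound partner of the junction (0.80 ± 0.10), Pkp4, an armadillo protein of junctions (0.58 ± 0.10), Ctnna2, the alpha catenin of neurons (0.45 ± 0.10), and Vcl, which links catenin to actin (0.44 ± 0.10). Ctnnb1, beta catenin itself, differed by 0.43 ± 0.10 (adjusted p = 0.0040). With dChip 3 of the 18 were called, all higher in set A, against 10.4% of all genes called in either direction. Vcl (adjusted p = 0.19) and Ctnnb1 (adjusted p = 0.063) were not among them. Between the genotypes 0 of 18 were called with either normalization.

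The rest of the cadherin superfamily was on the chip with 15 of 42 listed genes, of which 0 were higher and 2 lower in set A (GCRMA). These were Cdh16 (-0.36 ± 0.10), a cadherin of kidney epithelium, and Cdh15 (-0.30 ± 0.10), a cadherin of muscle, neither of which was called with dChip. The median of the 15 genes was 0.01. Of the other immunoglobulin adhesion molecules 28 of 49 were measured, and 5 were higher and 2 lower in set A (GCRMA), a share near the 26.4% of all genes, with a median of -0.03. With dChip 2 were higher and 1 lower. Vcam1, an endothelial ligand of leukocyte integrins (0.59 ± 0.10), Cadm1, a synaptic and epithelial adhesion molecule (0.55 ± 0.10), and Robo1, a receptor of Slit proteins (0.38 ± 0.10), were among the higher ones, and Mog, a myelin protein (-0.56 ± 0.10), was lower. Of these 4, Robo1 and Mog were also called with dChip, and Vcam1 (adjusted p = 0.11) and Cadm1 (adjusted p = 0.078) were not. Mog was dim, with GCRMA pool means from 4.12 to 4.97 where the median of all values was 7.22.

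Enzymes, ligands and partners of the immunoglobulin family were measured with 24 of 28 listed genes, of which 9 were higher and 1 lower in set A, with a median of 0.17 (GCRMA). Over all genes 26.4% were called in either direction with GCRMA and 10.4% with dChip. Gap43, a protein of growth cones on the signaling path of Ncam1 (0.68 ± 0.10), St8sia4, a polysialyltransferase that modifies Ncam1 (0.64 ± 0.10), and Fyn, a kinase that acts downstream of Ncam1 and contactin (0.57 ± 0.10), and Nrp1, a semaphorin receptor that pairs with L1cam (0.49 ± 0.10), were higher in set A. Lgals3, a lectin (-0.41 ± 0.10), was lower. With dChip 3 genes of this list were higher, Gap43 and Fyn among them, and 1 was lower, Lgals3. St8sia4 (adjusted p = 0.085) and Nrp1 (adjusted p = 0.085) were not called with dChip. Between the genotypes 0 genes of these 3 lists were called with either normalization. The lists hold genes of many tissues, and no call of a list as a whole was made.

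**Figure D4:**
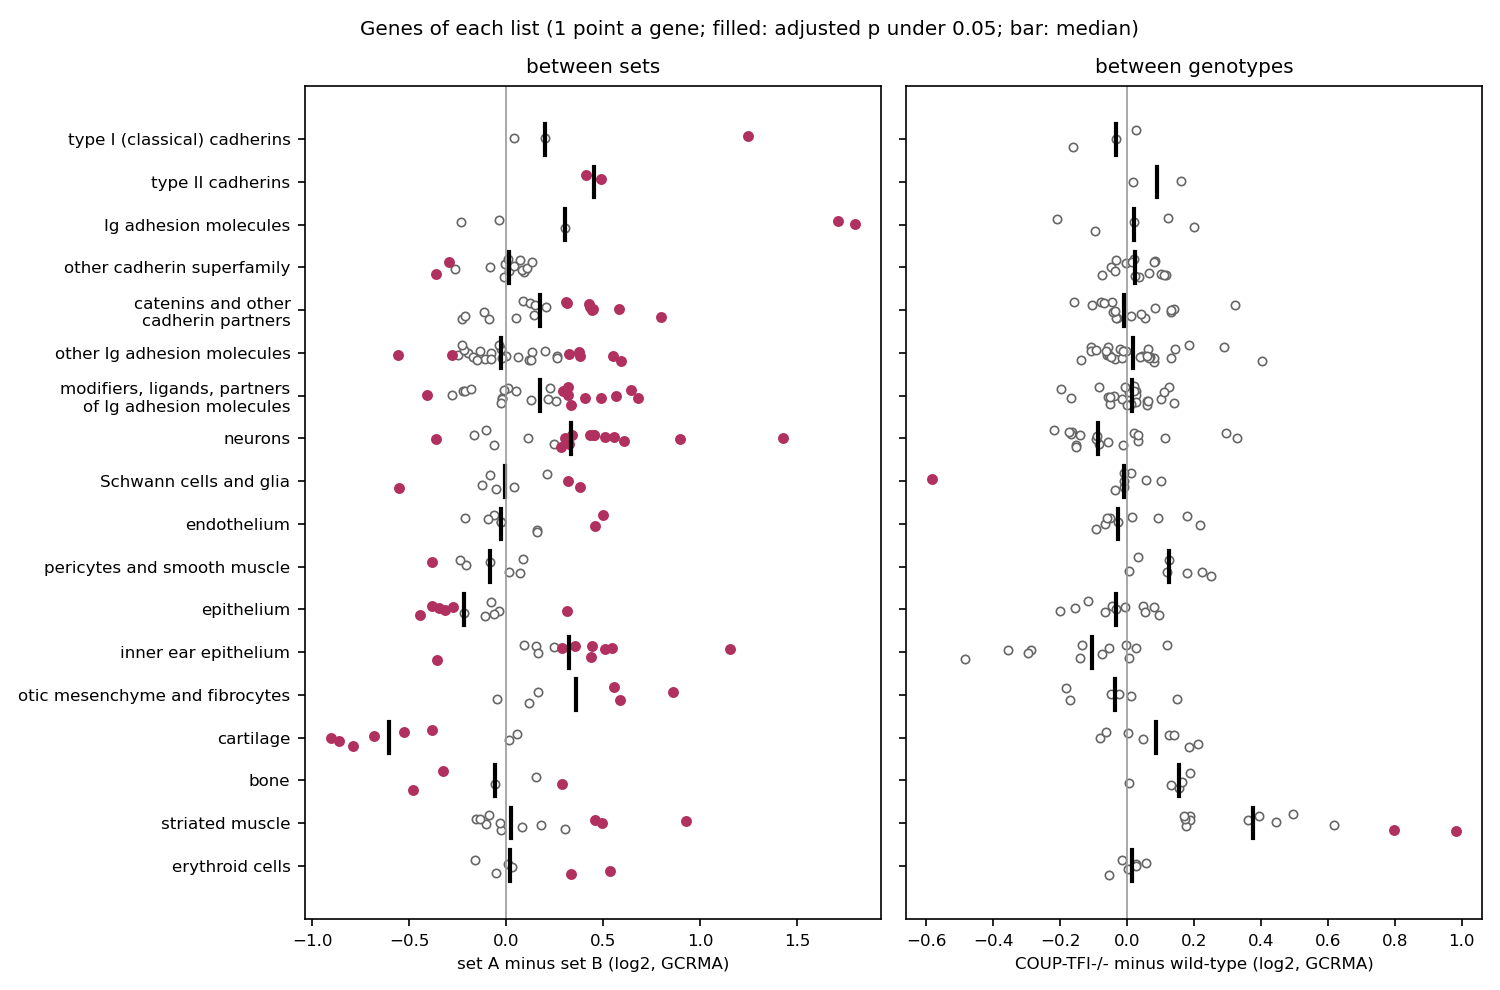
GCRMA differences (log2, x axes) between sets (left, set A minus set B) and between genotypes (right, COUP-TFI-/- minus wild-type) for the genes of each list, 1 point a gene; filled points have an adjusted p under 0.05 and black bars are list medians. The catenin list has 8 filled points between sets, all above 0, and 0 between genotypes, and the cartilage list has 6 filled points below 0 between sets.

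Markers of the tissues in the sample moved with the sets beside the members. For all marker lists the share to set beside the counts is that of all 8251 genes, 26.4% (GCRMA) and 10.4% (dChip) called between the sets. Of 18 neuronal markers 12 were higher and 1 lower in set A (GCRMA, median 0.33), led by Mapt (1.43 ± 0.10) and Syt1 (0.89 ± 0.10), and their summed dChip intensity was 12340 to 13070 in set A and 10180 to 10960 in set B. With dChip 5 of the 18 were higher and 0 lower. Of 12 markers of the inner ear epithelium 7 were higher and 1 lower, led by Sox2 (1.15 ± 0.10) and Gjb2 (0.55 ± 0.11), with summed intensities of 11710 to 13090 in set A and 10100 to 10680 in set B (dChip calls, 4 higher and 1 lower). Of 6 markers of otic mesenchyme and fibrocytes 3 were higher and 0 lower, led by Coch (0.86 ± 0.10) and Pou3f4 (0.59 ± 0.10), with 15470 to 16350 in set A and 13070 to 14180 in set B (dChip calls, 3 higher and 0 lower).
Cartilage markers ran the other way, with 6 of 8 lower in set A and 0 higher (median -0.61), led by Col11a2 (-0.90 ± 0.10) and Col9a1 (-0.86 ± 0.10), and with summed intensities of 14550 to 16300 in set A and 23060 to 26140 in set B, and with dChip 6 were again lower and 0 higher. Endothelial markers, which bear on Cdh5 and Mcam, had 2 of 9 higher and 0 lower in set A, Emcn (0.50 ± 0.10) and Tek (0.46 ± 0.10), with a median of -0.03 and summed intensities of 4615 to 5027 in set A and 4029 to 4256 in set B. With dChip 3 of the 9 were higher and 0 lower, with a median of 0.21. Of 11 general epithelial markers, which bear on Cdh1 and Cdh3, 1 was higher and 5 were lower, led by Krt14 (-0.45 ± 0.11) and Krt19 (-0.38 ± 0.11), with 3492 to 3621 in set A and 3836 to 3973 in set B. With dChip 0 of the 11 were called (median -0.11), and Krt14 differed by 0.00 ± 0.16. No marker was at 0 on any chip in these lists, and their part in the set differences of the members was not tested.

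Of 6 erythroid markers 2 were higher and 0 lower in set A with GCRMA, 1 and 0 with dChip, and their summed intensity was 21200 to 21730 in set A and 17020 to 17900 in set B. In the remaining lists the GCRMA calls between the sets were 2 higher and 1 lower of 8 for Schwann cells and glia, 0 and 1 of 7 for pericytes and smooth muscle, 1 and 2 of 5 for bone, and 3 and 0 of 12 for striated muscle. The dChip calls for these lists were 1 higher and 1 lower, 0 and 0, 0 and 1, and 0 and 0, in the same order. Between the genotypes, all 12 striated muscle markers had differences above 0 (GCRMA, median 0.38), with summed dChip intensities of 22300 to 27350 in COUP-TFI-/- and 16530 to 23860 in wild-type, and Myh8 (0.98 ± 0.14) and Myh3 (0.80 ± 0.12), the perinatal and embryonic myosins, were called as higher in COUP-TFI-/-. For some of these markers the size depended on the set. Acta1 read 12.9 (COUP-TFI-/-) and 12.93 (wild-type) in set A, against 12.88 and 11.96 in set B (GCRMA pool means). Myh3 was higher in COUP-TFI-/- in both sets, at 7.74 against 7.26 (set A) and 7.60 against 6.49 (set B). The paper reports muscle classes among genes with an interaction of genotype and set, and proposes contamination during dissection, which was not tested here. The glial marker Fabp7 was lower in COUP-TFI-/- (-0.58 ± 0.10, adjusted p = 0.039), and no other marker was called between genotypes with GCRMA. With dChip 0 markers were called between genotypes, where Myh8 differed by 0.95 ± 0.24, Myh3 by 0.82 ± 0.17 and Fabp7 by -0.42 ± 0.12 (adjusted p = 1.00 for each). Cdh15 of muscle differed by 0.06 ± 0.10 between the genotypes, and the part of muscle in the genotype values of the members was not tested.

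As a reading of RNA quality, the control probe sets at the 3′ and 5′ ends of beta-actin and Gapdh were compared. With GCRMA the 3′ minus 5′ difference of beta-actin was 0.68 to 0.81 in set A and 0.73 to 0.82 in set B, and that of Gapdh was 0.14 to 0.33 in set A and 0.13 to 0.26 in set B, so the ends differed by like amounts in both sets. With dChip that of beta-actin was 0.46 to 0.70 (set A) and 0.17 to 0.38 (set B). The level of the 3′ probe set of beta-actin itself, whose actin filaments anchor the cadherin junction, was 13.42 to 13.55 in set A and 12.54 to 12.64 in set B (GCRMA).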

How the data were processed

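Total RNA of pooled P0 inner ears was hybridized by the authors to MG-U74Av2 chips, and the deposited table held 16 columns, 8 chips under each of 2 normalizations. Per the labels, the GCRMA values are log2 values and the dChip values are linear intensity values; software versions were not given in the sources used here. No depth exists for arrays, and 2 pools per genotype limit the precision. The 66 control probe sets were left out of the tests. Genes were named from the platform annotation (10833 of 12422 probe sets had 1 symbol, 396 several and 1193 none), and all 13 member probe sets matched RefSeq by gene identifier and symbol. dChip values under 1 (89 values over the table) were set to 1 before log2, and 1 probe set without complete dChip values was left out there.

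Duplicate chips were averaged into 4 pools, and limma 3.58.1 (R 4.3.3) was fitted across all probe sets with set and genotype as terms, with Benjamini-Hochberg adjustment over all of them. The residual had 1 degree of freedom, with a prior of 14.3 for GCRMA and 4.55 for dChip. Sets pair the pools by the study's methods; over probe sets the set difference of COUP-TFI-/- pools correlated with that of wild-type pools at r = 0.752 (GCRMA) and 0.688 (dChip). The interaction was fitted on the 8 chips. The steps were tested on simulated data with planted changes of 1 log2 unit or more in size. The GCRMA set comparison recovered all of 200 changed probe sets among 12422, but 14.2% of its calls were false. That share was 8.57% in the dChip set comparison and 19% in the GCRMA genotype comparison, all above the nominal level. In the real GCRMA set comparison 25.8% of all probe sets were called, far more than were planted. The share of false calls depends on how many probe sets truly change, so the simulated shares are not estimates for the real set calls. Recovery of smaller differences was not tested. All member differences between genotypes, and those of Cdh5 and Cdh11 between sets, were smaller.

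The members and lists were chosen with earlier results of these data known. The text names all member probe sets, Nr2f1, up to 4 genes per partner list with the largest GCRMA set difference among those called between sets plus any called between genotypes, and up to 2 genes per marker list. Ctnnb1, Lgals3, Cdh15 between genotypes, Myh8, Myh3, Acta1, Fabp7 and the chosen promoters were added after their values were seen. Of the marker genes, 3 are also in the partner lists. Alternatives were other fits, scalings, filters and single chips left out.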

Additional observations from a re-analysis of the deposited data

Results flagged for a closer look

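Of 52 groups of 4 chips (13 probe sets, 2 genotypes and 2 normalizations), 2 held a chip far from the other 3. A rate of 1 in 20 groups would give 2.6, but both normalizations read the same chips, so the groups are not independent. Each group also mixes the sets, whose difference can widen its range. With either normalization the chip was wild-type B2 on Ncam1 100152_at, with a GCRMA value of 5.59 where the other wild-type chips read 5.17 to 5.21, and a dChip intensity of 123 where the others read 101 to 105. The probe set is dim, and the other Ncam1 probe sets on that chip read close to their duplicates.

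The genotype difference of Cdh11 differed between the sets, by 0.63 log2 units with GCRMA (limma on the 8 chips, adjusted p = 0.042), being 0.33 in set A and -0.30 in set B. Duplicate chips of a pool set the error of that test, and 1 pool per genotype and set stood behind each value.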

How the results depend on the processing

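Between the sets, 5 member probe sets were called with GCRMA and 4 with dChip. The share of all probe sets called under the same setting stands in parentheses. The member count was 8 with GCRMA (46.1%) and 9 with dChip (50.5%) with limma on the 8 chips and the interaction, which counts duplicates as replicates. With dChip it was 8 with the pool as a random block (38.1%), 8 with the methods' 2-way analysis of variance (39.4%) and 7 of the 10 member probe sets that were above the median level (29.2% of 6210). With dChip values under 16 set to 16 it was 0 (0 of all 12421 probe sets, 7 members at an unadjusted p under 0.05); the cause was not tested. With prior degrees of freedom set to 4 the GCRMA count was 3 (7.25%; Cntn1, Alcam and Cdh2), and set to 8 the dChip count was 7 (22.4%); these settings were chosen after seeing the data. Leaving out single chips gave 4 to 6 calls with either normalization (16.5% to 26.6% with GCRMA and 4.59% to 18.5% with dChip). Without the replicate block (pool means without genotype) the counts were 5 with GCRMA (23%) and 5 with dChip (20.1%). With the chip label as a replicate block no member was called between genotypes. The interaction count of 1 (0.958%) was 0 with the 2-way analysis of variance (0.0403%) and 0 with dChip values (0.459%). It was 2 of 7 above the median level (1.93%), namely Cdh2 and Ncam1 100153_at, a filter that leaves out Cdh11. Without single chips it was 0 to 2 (0.185% to 1.91%). Between genotypes 0 members were called in every alternative run. Of the values of single probe sets between sets, 201 of 215 (GCRMA) and 197 of 231 (dChip) stayed on their side of the threshold, 9 and 30 passed it newly, 5 and 4 lost it, and 0 called differences reversed.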
